A study of Homo sapiens with 4 samples.

Results

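The 37 autophagy and mitophagy genes described here were named in a list of pathway members and found on the arrays by gene symbol. They were taken from 19775 genes that had a probe set annotated to a single symbol, and the brightest probe set stood for each gene. All 37 were on the array, and 36 passed the filter on dim probe sets, out of 13284 genes tested. ULK2, 1 of a pair of related kinases that start autophagy, was too dim to be tested, with intensities of 3.3 to 18.9 over the 4 arrays in its brightest probe set.

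Autophagy encloses part of the cytoplasm in a double membrane, the autophagosome, and delivers it to the lysosome. The ULK kinase complex starts the process, a lipid kinase complex around BECN1 marks the growing membrane, and a conjugation machinery attaches small ubiquitin-like proteins of the ATG8 family (LC3 and GABARAP) to it. Cargo receptors such as SQSTM1 bind both the cargo and the ATG8 proteins, and in mitophagy, the removal of mitochondria, receptors such as BNIP3L sit on the mitochondrion itself.

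The cells were Raji, an established Burkitt lymphoma line that carries Epstein-Barr virus, grown in RPMI with serum. A clone labelled DLEU1 downregulated, made with TALENs (designer nucleases that cut a chosen DNA site), was hybridised to 2 arrays, and a wild-type clone labelled control to 2 arrays. DLEU1 encodes a long non-coding RNA and lies on chromosome 13, and the comparison asks what differs between the clones. Each genotype was 1 clone, and no source used here says whether its 2 arrays were separate cultures. The p-values therefore rest on the differences within each pair of arrays, and these may be technical only. On the deposited scale these differences were pooled over probe sets of like intensity. In RNA from a whole culture, less RNA per cell and fewer cells with the transcript cannot be told apart.

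The arrays differed in overall brightness. The trimmed mean intensity was 173 and 198 on the DLEU1 downregulated arrays, against 165 and 133 on the control arrays, so differences are given both for the values as deposited and after quantile normalization, which gives every array the same distribution. The median log2 change over all tested genes was 0.19 as deposited and -0.01 after quantile normalization, and changes are to be read against it. DLEU1 read 523.7 and 616.9 on the arrays of its clone and 1363.4 and 1023.8 on the control arrays (log2 change -1.04 ± 0.24 SE, limma adjusted p = 3.20e-04, and -1.38 after quantile normalization). Without DLEU1 downregulated replicate 1 or 2 the deposited change of DLEU1 no longer passed (limma adjusted p = 0.218 and 0.140), while it passed in all 4 such fits after quantile normalization. For DLEU1 alone, exact permutation of the 4 arrays (two-sided) gave p = 0.333, which is the smallest value that this number of arrays can give. For other genes too, groups said to be apart are therefore a description of the 4 readings and not a test. Of 7 B-cell markers 6 were measured, at 583.6 to 8376.2, whereas markers of T cells and myeloid cells lay at 0.4 to 20. Among 5 stromal and epithelial markers the highest reading was 121.2. Limma called 0 of the 6 B-cell markers as deposited (1 lower at an unadjusted p under 0.05) and 4 lower after quantile normalization, and COL1A2 was the only other marker called, at a log2 change of -1.14. The part of these marker shifts in the results was not tested.

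As deposited, 4 of the 36 tested members were higher in the DLEU1 downregulated clone (limma adjusted p under 0.05), namely SQSTM1, WIPI2, ATG10 and BECN1, and 1 was lower, BNIP3L. These shares were 11.1% and 2.78%, against 20.3% higher and 5.74% lower among all genes tested, so the members did not stand out by the number called. After quantile normalization 6 members were higher and 9 lower, or 16.7% and 25.0%, against 20.6% and 20.6% of all genes. The same 5 members passed in the same direction on both scales, where 19.2% of all genes passed as higher and 5.39% as lower. A further 10 passed only after quantile normalization, of which ATG101 and PIK3R4 were higher and ATG12, GABARAPL2, CALCOCO2, NBR1, UVRAG, GABARAP, ATG5 and FUNDC1 lower. Of all genes 2738 were higher and 2737 lower after quantile normalization, against 2544 and 713 on both scales. Most lower calls of all genes were therefore also made on the quantile scale only. The median log2 change of the members was 0.18 as deposited and -0.07 after quantile normalization. All calls on the deposited scale were lost without either array of the DLEU1 downregulated clone (limma found 0 members, with 3 higher and 2 lower at an unadjusted p under 0.05 without replicate 1, and 1 and 2 without replicate 2). Without control replicate 1, 8 members were higher and 1 lower. After quantile normalization and without 1 array at a time, 9 to 15 members passed, and BNIP3L, SQSTM1, WIPI2, ATG12, GABARAPL2, CALCOCO2, NBR1 and UVRAG passed in every one of these 4 fits. BECN1 and GABARAP passed in 3 of them, ATG101 in 2, and ATG10, ATG5, PIK3R4 and FUNDC1 in 1.

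**Figure D1:**
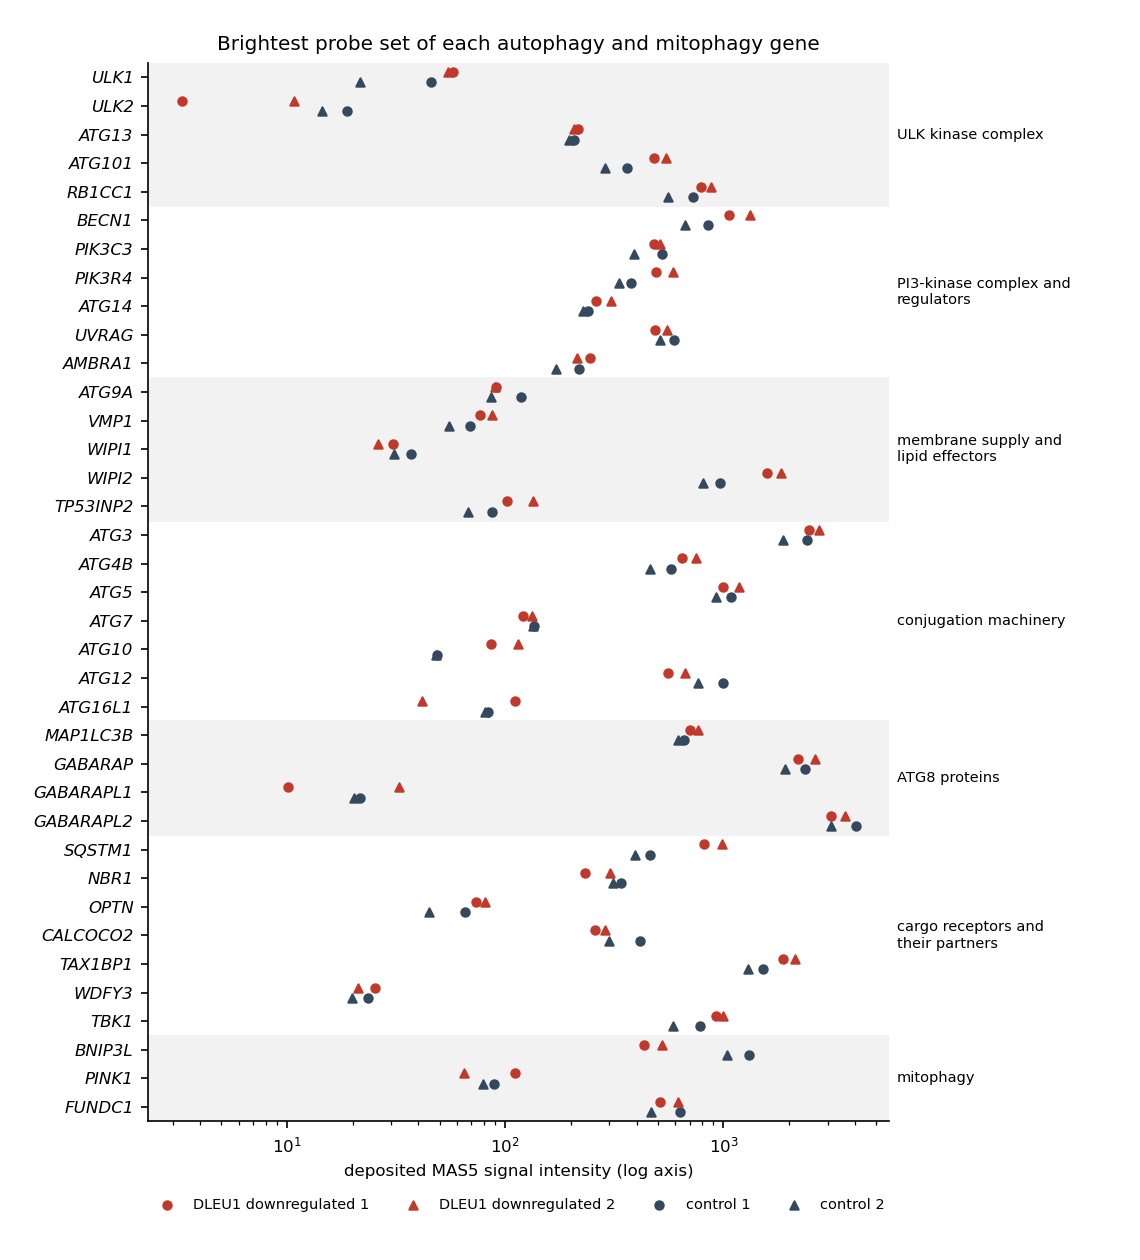
Deposited intensity (log axis) of the brightest probe set of each member on the 2 DLEU1 downregulated arrays (red) and the 2 control arrays (dark), with genes grouped by role. BNIP3L, at 432.4 and 525.5 against 1305.5 and 1036.6, and SQSTM1, at 817.7 and 981 against 460.2 and 391.7, show the widest separation among the brighter members.

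**Figure D2:**
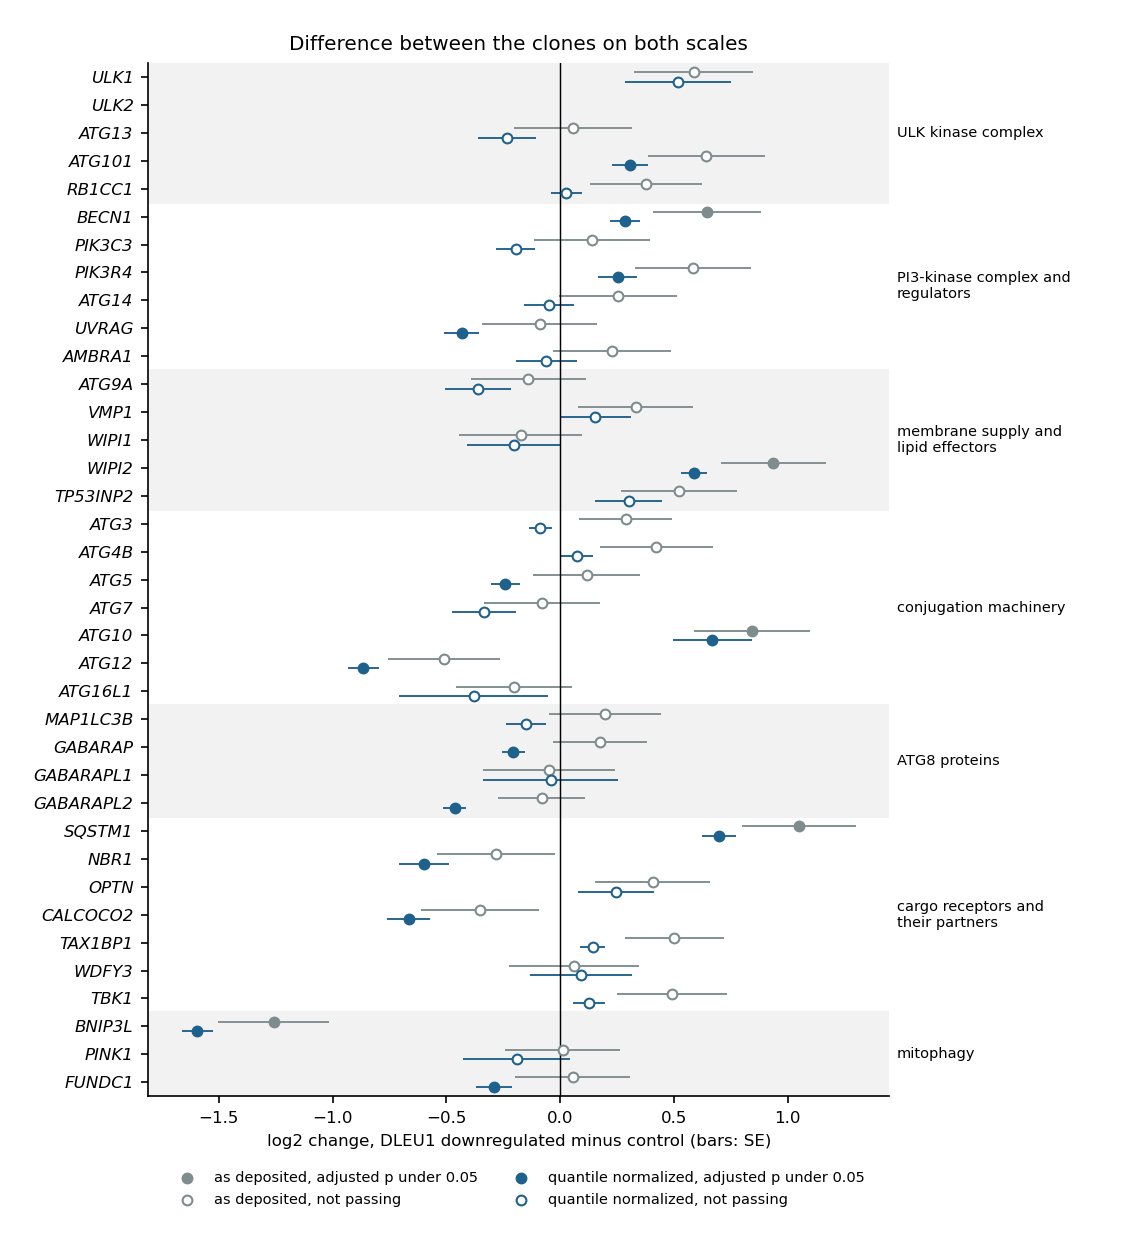
Log2 change (DLEU1 downregulated minus control, bars 1 SE) of each tested member as deposited (grey) and after quantile normalization (blue), with filled points where the limma adjusted p was under 0.05. Quantile normalization moved most members to the left, and ATG12, at -0.51 and -0.87, passed only there.

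BNIP3L, an outer mitochondrial membrane receptor that recruits ATG8 proteins to mitochondria, was the member with the largest difference. Its brightest probe set read 432.4 and 525.5 on the DLEU1 downregulated arrays and 1305.5 and 1036.6 on the control arrays. Both arrays of the downregulated clone lay below both control arrays. The mean was 479 ± 65.8 against 1171 ± 190 (SD, n = 2 arrays each), a level 2.44-fold lower in the downregulated clone. The log2 change was -1.26 ± 0.24 (SE, limma adjusted p = 8.84e-06), and on the quantile scale -1.60 ± 0.07 (adjusted p = 1.48e-06). A second BNIP3L probe set went the same way, with 337.6 and 354.1 against 1189.9 and 907.2 and a log2 change of -1.54 (limma adjusted p = 5.15e-08).

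The other mitophagy members showed no such separation as deposited. PINK1, the kinase that accumulates on damaged mitochondria, read 110.6 and 64.5 in the downregulated clone and 89 and 79.5 in the control clone, so the groups overlapped (log2 change 0.01, limma adjusted p = 0.983). FUNDC1, another receptor in the outer mitochondrial membrane, read 511.2 and 616.9 against 628.9 and 463.6, again with overlap as deposited. Its groups were apart after quantile normalization, with the DLEU1 downregulated arrays below. After quantile normalization FUNDC1 was at -0.29 ± 0.08 (limma adjusted p = 0.0188), against 0.05 as deposited, and it no longer passed when 1 array was left out in 3 of 4 cases.

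SQSTM1 (p62), the receptor that links ubiquitinated cargo to ATG8 proteins and is itself degraded by autophagy, rose. Its brightest probe set read 817.7 and 981 on the DLEU1 downregulated arrays and 460.2 and 391.7 on the control arrays, with no overlap. The mean was 899 ± 115 against 426 ± 48.4 (SD, n = 2 arrays each), or 2.11-fold higher. The log2 change was 1.05 ± 0.25 (limma adjusted p = 4.10e-04), and 0.70 ± 0.07 (adjusted p = 1.34e-04) after quantile normalization. The 4 dimmer SQSTM1 probe sets had positive log2 changes of 0.32 to 0.55 as deposited, and limma called 0 of them on either scale (2 at an unadjusted p under 0.05 as deposited). The mean of all SQSTM1 probe sets had a log2 change of 0.57 as deposited (limma adjusted p = 0.0412), against 1.05 for the brightest.

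Among the other cargo receptors, values lay on both sides of 0. NBR1, a receptor with a domain plan like that of SQSTM1, read 232.5 and 301.3 in the downregulated clone and 338.6 and 312.2 in the control clone. CALCOCO2 (NDP52), a receptor for bacteria and mitochondria, read 257.8 and 285.3 against 412.4 and 298.4. In both genes the 2 downregulated arrays lay below the 2 control arrays, yet neither passed as deposited (log2 changes -0.28 and -0.35, limma adjusted p = 0.484 and 0.353). After quantile normalization NBR1 was at -0.60 ± 0.11 (limma adjusted p = 0.00265) and CALCOCO2 at -0.67 ± 0.09 (adjusted p = 6.63e-04). TAX1BP1, a relative of CALCOCO2, had log2 changes of 0.50 and 0.14 on the deposited and quantile scales and did not pass in its brightest probe set (limma adjusted p = 0.0821 and 0.0793). A TAX1BP1 probe set of nearly the same brightness, at 1877.7 and 2138 against 1514.4 and 1253.6, was higher after quantile normalization (0.18, limma adjusted p = 0.0266). A dimmer one, at 168.9 and 111 against 70.4 and 58.7, was higher on both scales (0.93 and 0.73, limma adjusted p = 0.00258 and 0.0298), and the mean of the TAX1BP1 probe sets also passed as deposited (0.66, adjusted p = 0.0302). OPTN, a receptor phosphorylated by TBK1, was at 0.41 and 0.24, TBK1 itself at 0.49 and 0.13, and the large scaffold WDFY3, read at only 19.8 to 25.2, at 0.06 and 0.09, and these 3 passed on neither scale.

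Among the genes for membrane supply and lipid binding, WIPI2 rose. WIPI2 binds the phosphoinositide made by the BECN1 complex and brings ATG16L1 to the membrane. Its brightest probe set read 1588 and 1833 on the DLEU1 downregulated arrays and 964.7 and 809 on the control arrays, so the groups were apart. The mean was 1711 ± 173 against 887 ± 110 (SD, n = 2 arrays each), or 1.93-fold higher, with a log2 change of 0.94 ± 0.23 (limma adjusted p = 6.42e-04) and of 0.59 ± 0.06 after quantile normalization (adjusted p = 7.98e-05). Its relative WIPI1 was dim, at 30.6 and 26 against 37.1 and 30.9, and did not pass. The lipid scramblases ATG9A and VMP1 and the LC3-binding TP53INP2 had log2 changes of -0.14, 0.33 and 0.52 as deposited and passed on neither scale.

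To show start regions from members called in each direction, promoters of 2 higher and 2 lower members are printed here. These members had the smallest limma p in their direction after quantile normalization, once BNIP3L was left out of the choice. BNIP3L had the smallest p of all members on that scale, and its promoter is not printed. GABARAPL2 and ATG12 were lower on the quantile scale only. The promoters come from the RefSeq table for GRCh38.p14, which matched 32 of the 37 members. Each promoter holds 250 bases before and 50 bases from the annotated gene start. Capitals mark GGGCGG, the GC box, on either strand (CCGCCC on the other), and adjoining matches run together.
WIPI2, chr7:5189983-5190282, plus strand: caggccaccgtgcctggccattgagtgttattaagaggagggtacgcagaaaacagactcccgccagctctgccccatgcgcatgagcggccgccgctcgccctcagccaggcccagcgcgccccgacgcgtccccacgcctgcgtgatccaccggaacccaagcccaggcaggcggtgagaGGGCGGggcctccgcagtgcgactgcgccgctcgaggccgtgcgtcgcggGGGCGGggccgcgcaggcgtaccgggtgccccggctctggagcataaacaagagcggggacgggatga
SQSTM1, chr5:179806143-179806442, plus strand: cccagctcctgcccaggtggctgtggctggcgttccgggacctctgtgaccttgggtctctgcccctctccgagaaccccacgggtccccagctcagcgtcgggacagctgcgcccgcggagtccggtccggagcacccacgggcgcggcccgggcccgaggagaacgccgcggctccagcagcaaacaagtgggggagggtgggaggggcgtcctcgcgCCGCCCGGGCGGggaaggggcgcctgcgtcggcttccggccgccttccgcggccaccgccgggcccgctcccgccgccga
ATG12, chr5:115841516-115841815, minus strand: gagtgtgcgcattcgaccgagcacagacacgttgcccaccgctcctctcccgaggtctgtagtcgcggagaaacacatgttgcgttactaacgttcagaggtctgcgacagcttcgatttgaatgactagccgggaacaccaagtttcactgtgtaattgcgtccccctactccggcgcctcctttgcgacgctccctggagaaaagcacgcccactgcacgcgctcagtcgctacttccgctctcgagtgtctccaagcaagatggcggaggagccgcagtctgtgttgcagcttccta
GABARAPL2, chr16:75566129-75566428, plus strand: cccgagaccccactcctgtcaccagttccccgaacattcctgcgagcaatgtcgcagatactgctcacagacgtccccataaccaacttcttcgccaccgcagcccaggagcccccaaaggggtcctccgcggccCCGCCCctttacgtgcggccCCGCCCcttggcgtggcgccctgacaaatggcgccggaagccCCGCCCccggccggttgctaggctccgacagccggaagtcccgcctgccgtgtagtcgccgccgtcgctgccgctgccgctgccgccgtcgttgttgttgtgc
WIPI2 and SQSTM1, both higher, each held 2 GC boxes, GABARAPL2, lower after quantile normalization, held 3, and ATG12 held 0. The GC box was in 21 of 32 member promoters (65.6%) and in 44.6% of all 27305 promoters of that length. Those 27305 were not limited to genes tested on the arrays, so for all 4 motifs the compared sets are unlike. CACGTG, the core of the motif bound by the autophagy and lysosome regulator TFEB, was in 3 of the 32 (ATG3, ATG14 and TBK1), or 9.38%, against 7.43% of all promoters. TGACNNNGC, the core of the antioxidant response element, was in 3 (ATG101, CALCOCO2 and MAP1LC3B), or 9.38%, against 13.6%. A motif of NF-kB was in 1 (OPTN), against 1.92% of all promoters. All 4 motifs were searched on both strands, none of the last 3 was in a printed promoter, and a match is a description of these letters only.

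In the conjugation machinery, ATG10 was higher on both scales and ATG12, the protein it conjugates, lower after quantile normalization. ATG10 is the E2-like enzyme that passes ATG12 on to ATG5. It read 86.1 and 114.8 in the downregulated clone and 48.6 and 48.2 in the control clone, with no overlap and a ratio of 2.08. Its log2 change was 0.84 ± 0.25 (limma adjusted p = 0.00709), and 0.67 ± 0.18 (adjusted p = 0.0172) after quantile normalization. ATG12 read 557.7 and 664 on the DLEU1 downregulated arrays and 993.6 and 768.1 on the control arrays, again with the groups apart but in the other direction. The ATG12 change was -0.51 ± 0.25 (limma adjusted p = 0.122) as deposited and -0.87 ± 0.07 (adjusted p = 2.44e-05) after quantile normalization. A single array left out on the quantile scale ended the call of ATG10 in 3 of 4 cases (adjusted p up to 0.146), and ended that of ATG12 in 0 of 4. The second brightest ATG12 probe set had log2 changes of -0.31 and -0.63 on the deposited and quantile scales (limma adjusted p = 0.422 and 0.00637). The dimmest had a positive change of 0.57 as deposited that did not pass. The mean of all ATG12 probe sets had a log2 change of -0.08 as deposited (limma adjusted p = 0.844).

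The remaining conjugation genes differed less. ATG5, the acceptor of ATG12, read 995.5 and 1184.3 against 1081.2 and 924.5, with overlap as deposited but not after quantile normalization. On the quantile scale ATG5 was at -0.24 ± 0.06 (limma adjusted p = 0.0174), against 0.12 as deposited. ATG16L1, which completes the ATG12-ATG5 complex, read 110.5 and 41.4 in the downregulated clone, on either side of the control readings of 83.1 and 81.1. ATG7, the E1-like enzyme, ATG3, the E2-like enzyme for LC3, and ATG4B, the protease that trims ATG8 proteins, had log2 changes of -0.08, 0.29 and 0.42 as deposited and -0.33, -0.09 and 0.08 after quantile normalization, and passed on neither scale.

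Limma called 0 of the 4 ATG8 genes as deposited (0 also at an unadjusted p under 0.05), and 2 were lower after quantile normalization. GABARAPL2 (GATE-16) read 3109.7 and 3589.4 on the DLEU1 downregulated arrays and 4027.6 and 3105.9 on the control arrays. The groups overlapped as deposited (log2 change -0.08) but not after quantile normalization, where the log2 values were 11.51 and 11.53 against 12.05 and 11.93 (change -0.46 ± 0.05, limma adjusted p = 1.60e-04). GABARAP read 2192.3 and 2618.3 against 2355.8 and 1911.6, and its change was 0.17 as deposited and -0.21 ± 0.05 after quantile normalization (limma adjusted p = 0.0117). MAP1LC3B, the LC3 gene whose lipidated protein is the usual marker of autophagosomes, read 699.6 and 768.1 in the downregulated clone and 660.2 and 616.3 in the control clone. This brightest MAP1LC3B probe set passed on neither scale (log2 changes 0.20 and -0.15). The second one, at 448.4 and 597.8 against 556.3 and 464.2, had changes of 0.03 as deposited and -0.32 after quantile normalization, where it was lower (limma adjusted p = 0.0232). GABARAPL1 was close to the bottom of the range, at 10.1 and 32.7 against 21.6 and 20.2. Its other probe set, as dim, read 6.6 and 11.5 against 28 and 23.4, with the groups apart. Its log2 changes were -0.74 and -0.70 on the deposited and quantile scales, and it did not pass (limma adjusted p = 0.0599 and 0.0520).

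BECN1, the scaffold of the lipid kinase complex, was higher, though its 2 probe sets differed. The brightest read 1062.1 and 1318.2 on the DLEU1 downregulated arrays and 848.7 and 663.1 on the control arrays, without overlap. Its log2 change was 0.65 ± 0.24 (limma adjusted p = 0.0339), and 0.28 ± 0.07 (adjusted p = 0.0101) after quantile normalization. The other tested BECN1 probe set read 693.2 and 1051.9 against 880.8 and 679.2, with log2 changes of 0.14 and -0.23 on the 2 scales, and did not pass. The BECN1 call as deposited was also lost without control replicate 2 (log2 change 0.47, limma adjusted p = 0.258), and that after quantile normalization without DLEU1 downregulated replicate 2 (0.23, adjusted p = 0.0972).

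Partners of BECN1 went in different directions on the quantile scale. PIK3R4 (VPS15), the regulatory subunit of the lipid kinase, read 490.9 and 585.7 in the downregulated clone and 375.7 and 330.9 in the control clone, with log2 changes of 0.58 (limma adjusted p = 0.0850) as deposited and 0.25 (adjusted p = 0.0499) after quantile normalization. UVRAG, which replaces ATG14 in the complex that acts on endosomes, read 484.7 and 552.8 against 596.2 and 511.3. The UVRAG groups overlapped as deposited (log2 change -0.09), and after quantile normalization the change was -0.43 ± 0.08 (limma adjusted p = 0.00235). The catalytic subunit PIK3C3 (VPS34), the targeting subunit ATG14 and the regulator AMBRA1 had changes of 0.14, 0.25 and 0.23 as deposited and -0.20, -0.05 and -0.06 after quantile normalization, and passed on neither scale.

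Of the ULK kinase complex, ATG101, which stabilises ATG13, came closest to the threshold as deposited. It read 480.2 and 544.3 on the DLEU1 downregulated arrays and 361 and 286.4 on the control arrays, with the groups apart (log2 change 0.64, limma adjusted p = 0.0539), and its change was 0.31 ± 0.08 (adjusted p = 0.0168) after quantile normalization. The kinase ULK1 was dim, at 57.8 and 54.8 against 45.6 and 21.6, and its adjusted p by limma was 0.0898 and 0.125 on the 2 scales. ATG13, the adaptor of the complex, read 214.7 and 206.6 against 207.4 and 196.4. Its groups overlapped as deposited but not after quantile normalization, and its brightest probe set passed on neither scale. The scaffold RB1CC1 (FIP200) was at 0.38 as deposited and 0.03 after quantile normalization and passed on neither scale.

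The members had 96 probe sets, of which 80 were tested, and 23 members had more than 1 tested probe set. In WIPI2 3 of 4 tested probe sets rose on both scales, by log2 changes of 0.92 to 1.22 as deposited, and both BNIP3L probe sets fell. Among the dimmer probe sets, 5 passed as deposited although the brightest of the gene did not. These belonged to ATG5, TAX1BP1, ATG4B and PIK3C3, which were higher, and to WIPI1, which was lower. After quantile normalization those of ATG4B and PIK3C3 no longer passed (limma adjusted p = 0.0757 and 0.0608), and 3 others passed where the brightest did not, namely 1 of ATG13 (-0.64, adjusted p = 0.0355) and 1 of MAP1LC3B, both lower, and the second TAX1BP1 probe set, which was higher. All such cases on both scales are named. For ATG5 the probe sets disagreed outright after quantile normalization. The dim ATG5 probe set read 168.4 and 193.6 in the downregulated clone and 105.8 and 82.6 in the control clone (log2 change 0.59, limma adjusted p = 0.00573 after quantile normalization), whereas the brightest was lower there. The dim WIPI1 probe set read 11.2 and 18.1 against 35.1 and 41.2, with a log2 change of -0.83 (limma adjusted p = 0.0201). No file used here says which transcript end each probe set covers.

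**Figure D3:**
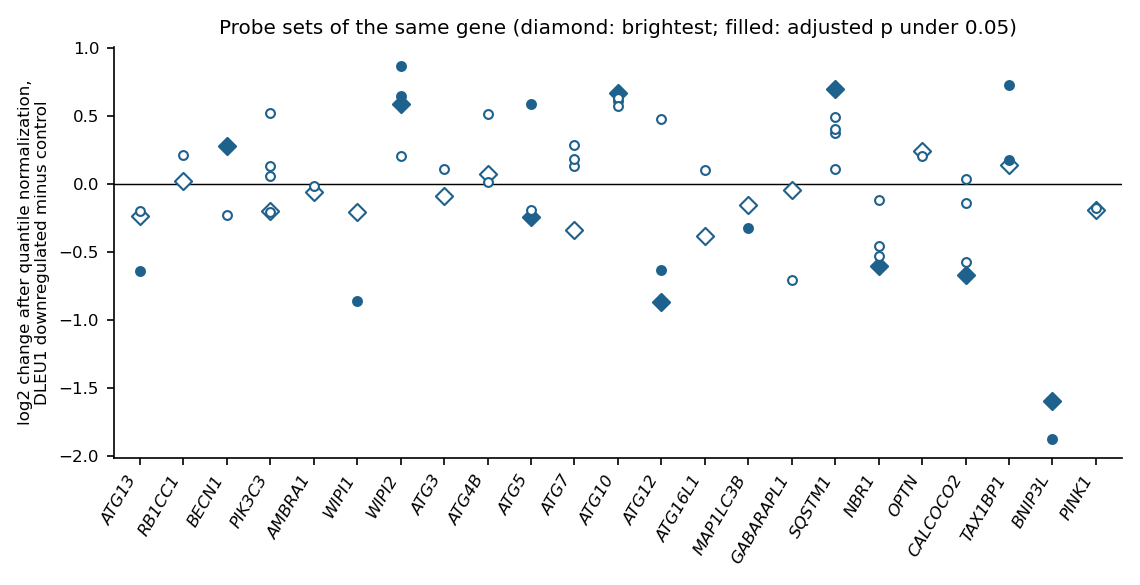
Log2 change after quantile normalization (DLEU1 downregulated minus control) of every tested probe set of the 23 members with more than 1, with diamonds for the brightest probe set and filled symbols where the limma adjusted p was under 0.05. Both BNIP3L probe sets lie below -1.5, and ATG5 is the only gene with filled symbols on both sides of 0.

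BNIP3L and WIPI2 lay in runs of genes that shifted the same way. Of the 40 tested genes nearest to BNIP3L in gene order on chromosome 8, 20 on each side, 25 were lower and 0 higher after quantile normalization, with a median log2 change of -0.59. As deposited 13 were lower and 0 higher. BNIP3L, at -1.60, ranked the fifth from the lowest among itself and these neighbours. Of the 40 genes around WIPI2 on chromosome 7, 27 were higher and 0 lower on both scales, and their median on the quantile scale was 0.54, against 0.59 for WIPI2 itself. On chromosome 7 as a whole 43.7% of 636 tested genes were higher after quantile normalization, and on chromosome 8 28.7% of 474 were lower. Among all genes the shares were 20.6% in each direction on that scale, and 20.3% higher and 5.74% lower as deposited. The part of these regional shifts in the change of BNIP3L or WIPI2 was not tested.

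Around SQSTM1, ATG12, CALCOCO2 and NBR1 the medians of the neighbours were nearer to 0. The 37 neighbours of SQSTM1 on chromosome 5 had a median of 0.10 after quantile normalization, with 9 higher and 8 lower, against 0.70 for SQSTM1. The 40 neighbours of ATG12, also on chromosome 5, had a median of -0.21 with 5 higher and 14 lower, against -0.87 for ATG12. The neighbours of CALCOCO2 and NBR1 on chromosome 17 had medians of 0.08 and 0.05, and both genes were the second from the lowest in their neighbourhoods.

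**Figure D4:**
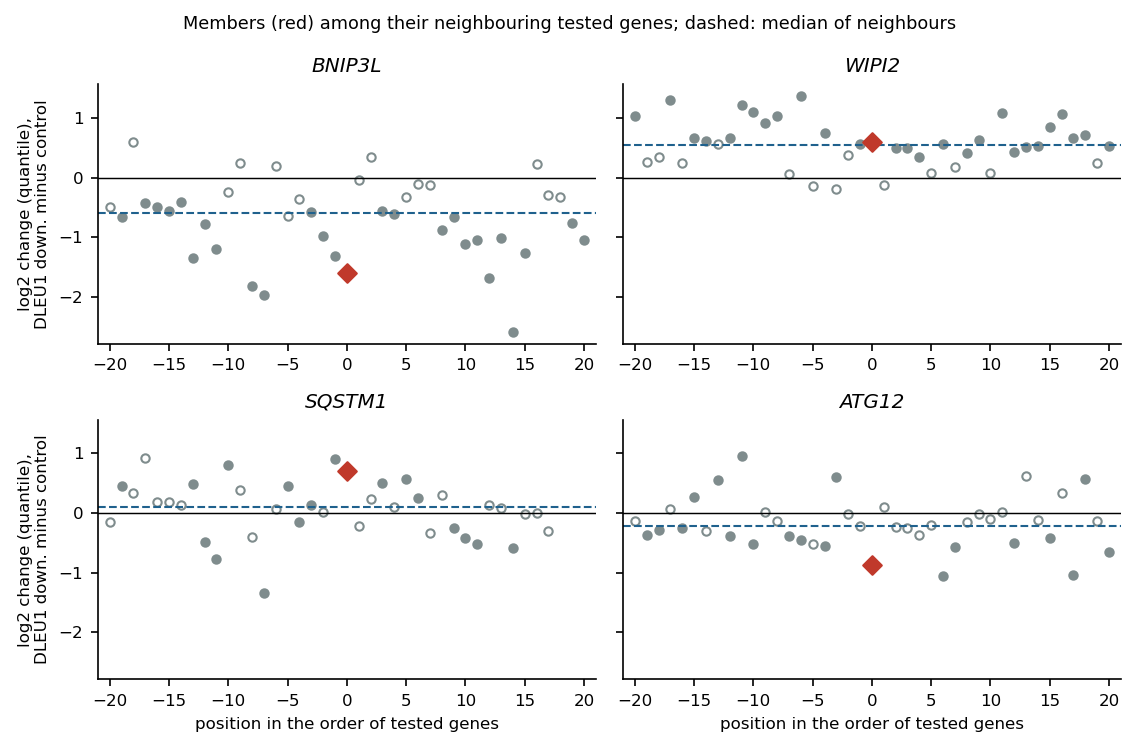
Log2 change after quantile normalization (DLEU1 downregulated minus control) of BNIP3L, WIPI2, SQSTM1 and ATG12 (red diamonds) and of up to 20 tested genes on each side in chromosomal order (grey, filled where the limma adjusted p was under 0.05), with the neighbours' median dashed. The dashed lines lie at -0.59 around BNIP3L and 0.54 around WIPI2, and at 0.10 and -0.21 around SQSTM1 and ATG12.

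The rest of the pathway was described with 5 further lists of 92 genes, of which 86 were tested. As deposited 20 were higher and 6 lower (23.3% and 6.98%, beside the 20.3% and 5.74% of all genes), and after quantile normalization 25 were higher and 21 lower (29.1% and 24.4%, beside 20.6% in each direction). As deposited the counts fell to 5 higher and 2 lower without DLEU1 downregulated replicate 1 and to 1 and 0 without replicate 2, and were 29 and 3 without control replicate 1 and 12 and 5 without control replicate 2. Of 14 genes for fusion of the autophagosome with the lysosome 4 (28.6%) were higher as deposited. Limma called 0 of them lower (9 higher and 0 lower at an unadjusted p under 0.05). After quantile normalization 7 (50%) were higher and 1 (7.14%) lower, with a list median of 0.28. Without 1 array at a time, the fusion genes called higher numbered 2 to 5 after quantile normalization and 0 to 8 as deposited. The membrane glycoprotein LAMP1 of the lysosome read 2366.2 and 2619.2 in the downregulated clone and 1390.5 and 1191.4 in the control clone. Its log2 change was 0.94 as deposited (limma adjusted p = 2.24e-04) and 0.58 after quantile normalization. The SNARE YKT6 was at 1.07 and the tethering subunits VPS16 and VPS18 at 0.82 and 0.65 as deposited. After quantile normalization these were 0.77, 0.52 and 0.41.

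Upstream of autophagy, 7 of 27 genes of mTORC1, AMPK and TFEB signalling were higher and 3 lower as deposited (25.9% and 11.1%). After quantile normalization 7 were higher and 6 lower (25.9% and 22.2%). Among all genes the shares were 20.3% and 5.74% as deposited, and 20.6% in each direction after quantile normalization. DEPTOR, an inhibitor of mTOR, read 254 and 224.8 on the DLEU1 downregulated arrays and 811.4 and 615.6 on the control arrays. Its log2 change was -1.50 as deposited (limma adjusted p = 2.79e-07) and -1.83 after quantile normalization. RHEB, the small GTPase that activates mTORC1, read 6609.5 and 7881.4 against 3952.5 and 3336.6. The RHEB log2 change was 0.99 as deposited (limma adjusted p = 6.99e-07) and 0.63 after quantile normalization. Its probe set has the suffix _x_at, which marks probes that may bind other transcripts too. The AMPK subunit PRKAG2 was at 1.73 and 1.51 on the 2 scales, from a probe set of the same kind. FLCN, a regulator of lysosomal nutrient sensing, was at 1.02 and 0.87.

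Of 17 other mitophagy genes 6 were higher and 1 lower as deposited (35.3% and 5.88%), and 6 and 3 after quantile normalization (35.3% and 17.6%). Among all genes the shares were 20.3% and 5.74% as deposited, and 20.6% in each direction after quantile normalization. The prohibitin PHB2, the import pore subunit TOMM40, the channel VDAC1 and NIPSNAP2, a protein that marks damaged mitochondria, had log2 changes of 0.83, 1.11, 0.56 and 1.17 as deposited. After quantile normalization these were 0.56, 0.75, 0.24 and 0.80. The gene that was lower on the deposited scale was BNIP3, the closest relative of BNIP3L, named after its value was seen. BNIP3 read 5.5 and 1.6 in the downregulated clone and 22.3 and 25.1 in the control clone (log2 change -1.03, limma adjusted p = 0.00864), near the bottom of the array's range. With a pseudocount of 1, a filter at the 60th percentile, or without control replicate 1, control replicate 2 or DLEU1 downregulated replicate 2, limma called 0 genes of this list lower on the deposited scale. Among the named genes of the further lists that rose, 4 lie on chromosome 7, as WIPI2 does, namely RHEB, PRKAG2, YKT6 and NIPSNAP2. The member TAX1BP1 lies there too. Its neighbours had a median of 0.15 after quantile normalization, against 0.14 for its brightest probe set.

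Of 16 other core autophagy genes 3 were higher and 1 lower as deposited (18.8% and 6.25%), and 4 and 6 after quantile normalization (25% and 37.5%). Among all genes the shares were 20.3% and 5.74% as deposited, and 20.6% in each direction after quantile normalization. EI24, a membrane protein of the endoplasmic reticulum, RUBCN, a brake on the UVRAG complex, and ATG16L2 were higher by 1.02, 0.84 and 0.90 as deposited. After quantile normalization these were 0.66, 0.49 and 0.63. TMEM41B, a scramblase like VMP1, was lower (335.8 and 417.7 against 728.3 and 633.4). Its log2 change was -0.83 as deposited and -1.18 after quantile normalization. Of 12 tested receptors for other selective forms 1 was lower as deposited (8.33%), SEC62, a receptor for the endoplasmic reticulum, at -0.57. Limma called 0 of them higher as deposited (2 at an unadjusted p under 0.05). After quantile normalization 1 was higher (8.33%), RETREG2, at 0.22, and 5 were lower (41.7%), with SEC62 at -0.93. The mean over all SEC62 probe sets had the opposite sign as deposited, at 0.09. RTN3 and NUFIP1 passed on neither scale, with log2 changes of 0.46 and 0.56 as deposited and 0.10 and 0.21 after quantile normalization.

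**Figure D5:**
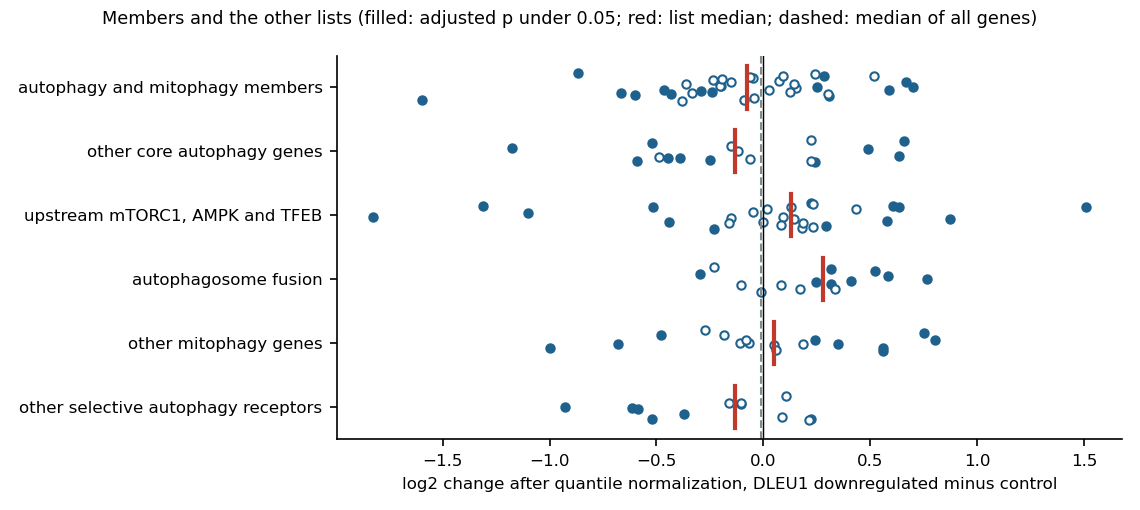
Log2 change after quantile normalization (DLEU1 downregulated minus control) of the tested members and of the 5 further lists, 1 point per gene, filled where the limma adjusted p was under 0.05, with list medians in red and the median of all genes dashed. The list medians lie between -0.13 and 0.28, and the members' median is -0.07.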

How the data were processed

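RNA of Raji cells was measured on Affymetrix HG-U133 Plus 2.0 arrays. The authors deposited a linear signal intensity for 54613 probe sets and 62 control probe sets per array, made with MAS5 per the submitters' processing notes, with its version and scaling target not given in the sources used here and detection calls not used here. Each intensity was turned into log2(value + 16), so a log2 change understates that of dim genes. Control probe sets and 21845 dim probe sets below the 40th percentile of mean log2 value were left out, and 32768 were tested. Quantile normalization used all probe sets other than controls. Both scales were fitted with limma 3.58.1 under R 4.3.3 (lmFit, eBayes with an intensity trend) with group as the only term. P-values were adjusted by Benjamini-Hochberg over all probe sets tested, and an adjusted p under 0.05 passed. Prior degrees of freedom were infinite as deposited and 6.755 after quantile normalization. As deposited, the SE and p of a probe set therefore used the spread typical of its intensity and not its own. The small number of arrays limits the precision.

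Symbols came from the platform annotation and were updated by gene identifier against RefSeq (GRCh38.p14), for 41037 of 41091 probe sets with 1 symbol. The brightest probe set stood for a gene. The members and lists were chosen with earlier results of these data known. All members are named. Intensities per array are given for members that passed on either scale and for the ATG8 and mitophagy groups, with some others added, and of each further list the 4 genes with the smallest p are named. The fit was run on simulated arrays with known changes and independent noise for each probe set. Such arrays cannot show how the fit behaves with 1 clone per genotype. Alternatives were other normalizations, pseudocounts, filters, spread models and thresholds, a replicate block, leaving out each array, leaving out probe sets with the suffix _x_at, and averaging probe sets. Leaving out each array after quantile normalization was added after the data were seen.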

Additional observations from a re-analysis of the deposited data

How the results depend on the processing

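BNIP3L, SQSTM1 and WIPI2 kept their direction under every alternative and passed under all except the replicate block and the loss of either DLEU1 downregulated array, on the deposited scale. The sizes moved more, and as a mean of probe sets SQSTM1 was at 0.57, while WIPI2 and SQSTM1 were at 0.59 and 0.70 after quantile normalization. BECN1 also failed with no filter (limma adjusted p = 0.0753), without the intensity trend (0.0563), at a threshold of 0.01 and as a mean of probe sets, and ATG10 with no filter (0.0796). The balance of higher and lower calls moved with the scaling. With quantile normalization 9 members, 21 genes of the further lists and 2737 of all genes were lower. With a common trimmed mean these counts were 8, 20 and 2948. Median centring gave 13 members higher and 2 lower, 44 higher in the further lists and 4880 among all genes. With no filter 2 members were higher, and 1756 genes were higher and 497 lower. At a threshold of 0.01 there were 1754 and 458.

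With a replicate block limma called 0 members higher and 0 lower (3 and 1 at an unadjusted p under 0.05), 3 and 2 in the further lists and 513 and 304 of all genes, and DLEU1 stayed at -1.04 with adjusted p = 0.162. Quantile normalization with a replicate block gave 9 members, 21 listed genes and 2724 genes lower. Arrays with the same number had deviations that correlated at -0.05 as deposited and -0.01 after quantile normalization. Whether arrays with the same number shared a batch was not tested.

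Leaving out 1 array at a time, on either scale, gave 0 to 8 members higher and 0 to 10 lower, 1 to 29 and 0 to 19 in the further lists, 232 to 3407 and 225 to 2424 of all genes, and a DLEU1 log2 change of -1.43 to -0.83.

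Log2 changes that reversed sign were uncalled as deposited, except that of SEC62. After quantile normalization, with or without the block, they were ATG13 -0.23, PIK3C3 -0.20, ATG14 -0.0484, AMBRA1 -0.0606, ATG3 -0.0879, ATG5 -0.24, MAP1LC3B -0.15, GABARAP -0.21, PINK1 -0.19, FUNDC1 -0.29. With a common trimmed mean they were ATG13 -0.25, PIK3C3 -0.18, ATG14 -0.0548, AMBRA1 -0.0773, ATG3 -0.039, ATG5 -0.21, MAP1LC3B -0.12, GABARAP -0.15, WDFY3 -0.13, PINK1 -0.26, FUNDC1 -0.26. As means of probe sets they were ATG13 -0.13, ATG7 0.23, PINK1 -0.0436, SEC62 0.0865. Leaving out 1 array gave ranges, over both scales, of UVRAG -0.48 to 0.0173, ATG9A -0.43 to 0.0533, GABARAPL2 -0.52 to 0.10, PIK3C3 -0.25 to 0.35, WDFY3 -0.0138 to 0.18, PINK1 -0.56 to 0.34, FUNDC1 -0.34 to 0.27, GABARAPL1 -0.50 to 0.40, ATG5 -0.28 to 0.24, ATG16L1 -0.96 to 0.37, ATG13 -0.35 to 0.0935, ATG14 -0.17 to 0.37, AMBRA1 -0.24 to 0.39, ATG3 -0.12 to 0.47, MAP1LC3B -0.27 to 0.26, GABARAP -0.24 to 0.32, RTN3 -0.0903 to 0.56. Within each scale the ranges of ATG13, ATG3, MAP1LC3B and GABARAP kept their sign, which differed only between the scales. The other ranges in this list changed sign within a scale. The causes of these reversals were not tested. The dim readings of GABARAPL1, WDFY3, WIPI1 and BNIP3 limit what can be said of them.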
